A study of Mus musculus with 32 samples.

Results

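Keratins and other genes best known from epithelium were examined in sorted mouse lung phagocytes. The 9 genes were Krt19, Krt79, Krt18, Krt8, Epcam, Cdh1, Plet1, its antisense transcript Plet1os, and Car4, out of 24940 genes in the deposited expression table. They were looked up by symbol. They had been chosen by their RNA level in alveolar macrophages against the other cells, so those levels are described and not tested. Alveolar macrophages (AM), macrophages of the interstitium (IM), the inflammatory type of monocyte (iMo) and the patrolling type (pMo) were sorted, without treatment, from lung suspensions of 2 inbred strains, C57BL6J and DBA2J. The sorting antibodies were against SiglecF, Ly6g, Ly6c, CD64, CD11b, CD11c, F4/80 and CD45, and no genetic manipulation was listed for either strain. Each population of each strain had 2 RNA-seq libraries, 16 in all, and 1 list of open-chromatin peaks made from 2 ATAC-seq libraries. The sample labels call iMo and pMo macrophages while the series text calls them monocytes. The labels give no age and do not say whether replicates came from separate animals. The p-values below therefore measure only the spread between these libraries, which may be technical.

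Keratins are intermediate filament proteins that polymerise as pairs of a type I chain, such as Krt18 or Krt19, with a type II chain, such as Krt8 or Krt79. Epcam and Cdh1 (E-cadherin) hold neighbouring epithelial cells together, Plet1 is a lipid-anchored surface protein first described in placenta and epithelial progenitors, and Car4 is a lipid-anchored carbonic anhydrase on the cell surface. Alveolar macrophages live on the epithelial surface of the air sac, whereas interstitial macrophages sit in the tissue behind it and monocytes arrive from blood.

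RNA levels are in TPM, a unit scaled for transcript length and library size. Read depth is unknown. Replicates correlated at 0.877 to 0.974 over genes on the log2(TPM + 1) scale, with C57BL6J IM lowest. The ribosomal entries Rn45s and Mir6236 together held 51.5 to 55.6% of the nominal TPM total in AM libraries and 14.3 to 43.2% in the others. TPM of other genes is thus scaled down most in AM. Listed TPM summed to 632076 to 822130 per library, under that nominal total, so the share of these entries in the listed sum was larger. In bulk libraries, fewer cells of a type and less RNA per cell cannot be told apart. Every AM library stood above every other library for 6 of the 9 genes. Epcam did so only in C57BL6J, and Krt8 and Krt18 were at 0 TPM in all 4 AM libraries, against their label. The genes were chosen for their AM level, and the share of all genes with this order was not counted. Nothing is read from the count of 6. The 7 genes other than Krt8 and Krt18 averaged 1 TPM or more across libraries and entered the fits.

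Promoters, taken as 250 bases before to 50 after the start, are shown for 4 genes whose RNA and chromatin are contrasted below: Plet1 and Car4, which carried an AM peak over the start, and Epcam and Krt79, which did not. The sequences are from RefSeq on build GRCm38.p6, and 7 of the 9 genes had an entry. Capitals mark matches, on either strand, to any of 7 motifs: TATAAA (the TATA box), GGGCGG (Sp1), GAGGAAGT (PU.1), AGGTCA (nuclear receptors), TGANTCA (AP-1), TTGCNNAA (C/EBP) and CAGGTG (the E-box read by Zeb and Snail repressors). No match overlapped another in the sequences shown. Plet1 lies at chr9:50494275-50494574 on the plus strand, Car4 at chr11:84957504-84957803 plus, Epcam at chr17:87635729-87636028 plus, and Krt79 at chr15:101940275-101940574 minus.
Plet1: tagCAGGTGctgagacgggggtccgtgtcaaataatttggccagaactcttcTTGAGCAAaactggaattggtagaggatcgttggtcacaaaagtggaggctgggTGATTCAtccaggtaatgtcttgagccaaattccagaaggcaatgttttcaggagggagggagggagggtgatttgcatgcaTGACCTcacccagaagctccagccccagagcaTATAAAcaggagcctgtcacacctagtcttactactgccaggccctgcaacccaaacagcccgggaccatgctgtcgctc
Car4: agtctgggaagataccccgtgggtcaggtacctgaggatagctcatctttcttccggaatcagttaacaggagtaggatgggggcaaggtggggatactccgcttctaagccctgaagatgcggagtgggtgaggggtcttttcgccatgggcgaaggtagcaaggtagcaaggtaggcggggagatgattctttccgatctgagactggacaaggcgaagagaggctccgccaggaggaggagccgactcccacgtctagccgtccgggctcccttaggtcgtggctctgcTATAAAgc
Epcam: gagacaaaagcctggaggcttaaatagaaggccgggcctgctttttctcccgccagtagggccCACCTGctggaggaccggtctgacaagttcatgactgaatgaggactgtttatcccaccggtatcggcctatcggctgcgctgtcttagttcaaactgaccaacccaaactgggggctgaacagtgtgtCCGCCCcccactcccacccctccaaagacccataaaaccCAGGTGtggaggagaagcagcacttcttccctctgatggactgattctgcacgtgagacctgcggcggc
Krt79: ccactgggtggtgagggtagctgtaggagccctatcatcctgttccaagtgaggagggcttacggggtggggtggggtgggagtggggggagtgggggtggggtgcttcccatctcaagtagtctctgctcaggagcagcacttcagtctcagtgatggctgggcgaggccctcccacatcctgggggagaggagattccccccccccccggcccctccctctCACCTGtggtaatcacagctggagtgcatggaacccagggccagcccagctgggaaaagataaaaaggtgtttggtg
The Plet1 window held 5 of the 7 motifs. Its TATAAA spanned bases -30 to -25 from the start, where a TATA box usually lies, its AGGTCA spanned -62 to -57, its TGANTCA -144 to -138, its TTGCNNAA -198 to -191 and its CAGGTG -247 to -242. Of 32851 RefSeq promoters of the same length, 13.6% held TATAAA, 16.3% AGGTCA, 7.81% TGANTCA, 10.8% TTGCNNAA and 20.2% CAGGTG. Car4 held only a TATAAA inside the transcribed part, at bases 43 to 48. Epcam held CAGGTG at -187 to -182 and at -19 to -14, with a GGGCGG at -58 to -53, a motif found in 35.7% of promoters. Krt79 held a CAGGTG at -27 to -22. GAGGAAGT, found in 3.20% of promoters, was in none of the 7 windows. Motif matches are descriptions of these letters and not measurements of binding.

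Krt19 was the most abundant of the 9 genes. It is the shortest type I keratin, found in ducts, airway and other simple epithelia, and lies on the minus strand at chr11:100140811-100143699 (mm10). Its level was 527 and 510.4 TPM in the C57BL6J AM libraries and 369 and 324 TPM in the DBA2J AM libraries. In IM it was 33.7 and 85.5 TPM in C57BL6J and 9.10 and 19.9 TPM in DBA2J. All AM libraries stood above all IM libraries, and within each of these populations the C57BL6J libraries stood above those of DBA2J. In pMo it was 1.39 and 5.33 TPM in C57BL6J and 0.685 and 1.91 TPM in DBA2J, and all 4 iMo libraries listed it at 0.

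Krt79, a type II keratin known from hair follicle and sebaceous duct, lies on the minus strand at chr15:101929332-101940324. It was at 149 and 149 TPM in C57BL6J AM and at 179 and 133 TPM in DBA2J AM. The strains overlapped there. In IM it was 10.5 and 29.5 TPM in C57BL6J and 5.58 and 8.82 TPM in DBA2J, while no monocyte library passed 1.23 TPM. The order AM, IM, monocytes was thus the same as for Krt19, with no overlap between AM and IM or between IM and the monocytes.

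**Figure D1:**
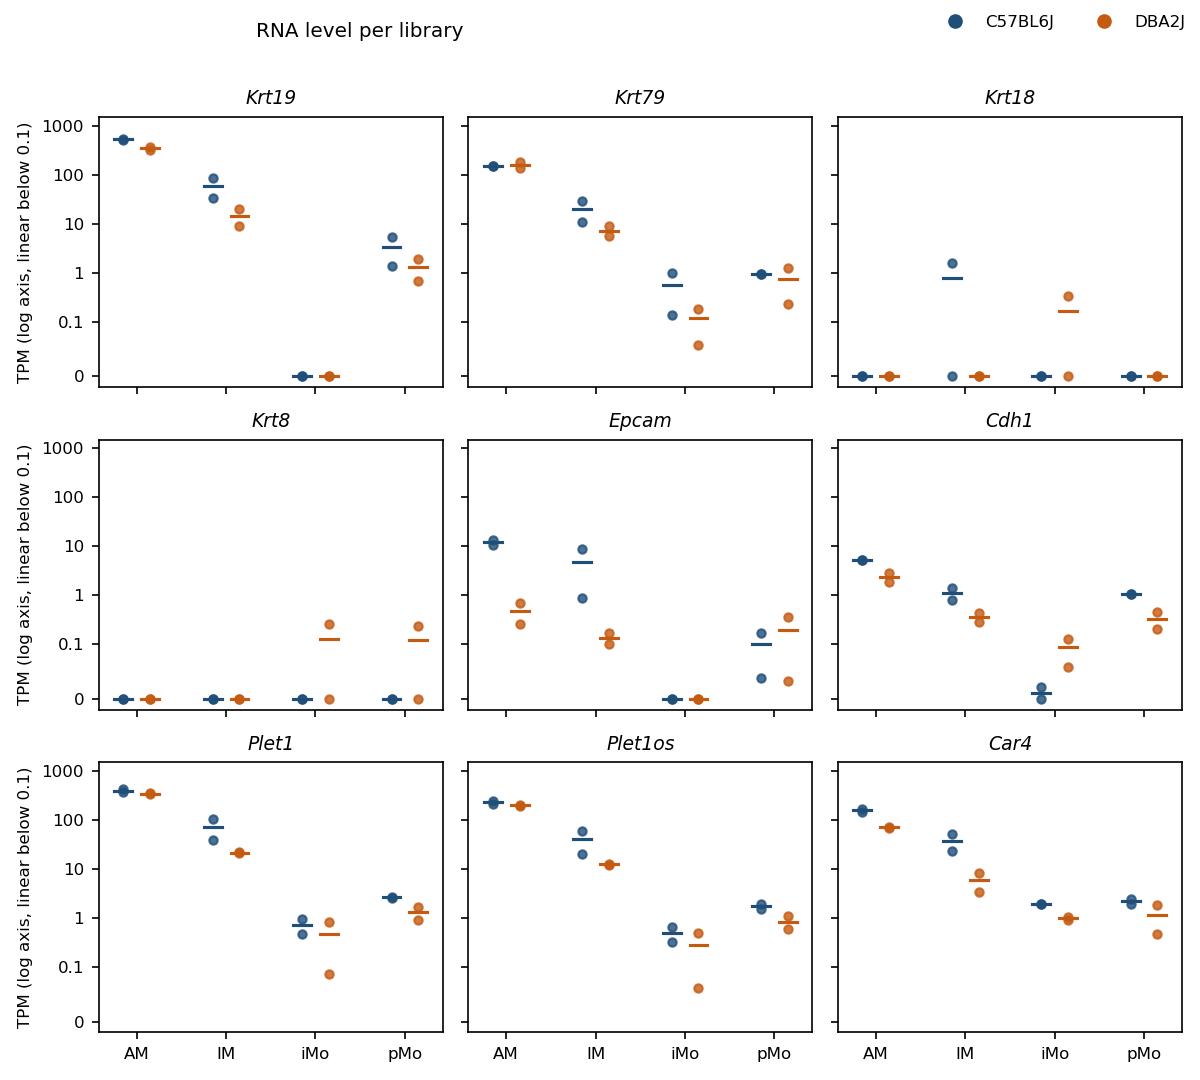
RNA level of the 9 genes by cell type, in TPM on an axis that is logarithmic above 0.1 and linear below; points are libraries, bars the mean of 2 libraries, and colours the strains. For Krt19, Krt79, Plet1, Plet1os and Car4 every AM library lies above every IM library, while Krt8 and Krt18 are at 0 in all 4 AM libraries.

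Krt8 and Krt18, the keratin pair of simple epithelia, lie next to each other on chromosome 15, at chr15:101996711-102004342 and chr15:102028216-102032026. Krt8 was above 0 in 2 of 16 libraries, 1 of DBA2J iMo at 0.257 TPM and 1 of DBA2J pMo at 0.242 TPM. Krt18 was above 0 in 1 C57BL6J IM library, at 1.56 TPM, and in 1 DBA2J iMo library, at 0.328 TPM. Neither reached a mean of 1 TPM, so neither was tested. Neither chain was thus detected in AM, and with depth unknown no upper limit can be given.

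The table held 55 keratin genes, of which 19 were at 0 in every library and 44 stayed under 1 TPM in every library. Besides Krt19 and Krt79, only Krt80 and Krt7, both type II, had a mean of 1 TPM or more, and both were lower in AM. Krt80, a filament protein of cell junctions in many epithelia, was at 2.85 to 4.78 TPM in AM, 23.0 to 54.2 TPM in IM, 58.4 to 79.3 TPM in iMo and 142 to 166 TPM in pMo. Those 4 ranges did not overlap, and the order was the reverse of that of Krt19 and Krt79 between AM and the other cells. The log2 difference of AM from the mean of the other 3 populations was -4.10 ± 0.16 (SE; limma, adjusted p = 2.2e-09), and iMo lay below pMo by -1.17 ± 0.20 (limma, adjusted p = 0.00129). Krt7, a partner of Krt19 in glandular epithelium, was at 0.034 to 0.191 TPM in AM against 1.88 to 8.84 TPM elsewhere, a log2 difference of -2.55 ± 0.19 (SE; limma, adjusted p = 4.7e-07). Among all 12277 genes tested, 59.3% were called lower in AM and 12.5% higher, with a median log2 difference of -0.55. Under median-of-ratios scaling that median was 0.04, with 4017 genes called higher and 3787 lower against 1532 and 7277, and Krt80 and Krt7 were still lower in AM, by -3.48 and -2.34. Krt78, a neighbour of Krt79, averaged 1.18 ± 0.569 TPM in AM (SD, n = 4), was at 0.5 and 0.143 TPM in C57BL6J IM, and was at 0 in the other 10 libraries.

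**Figure D2:**
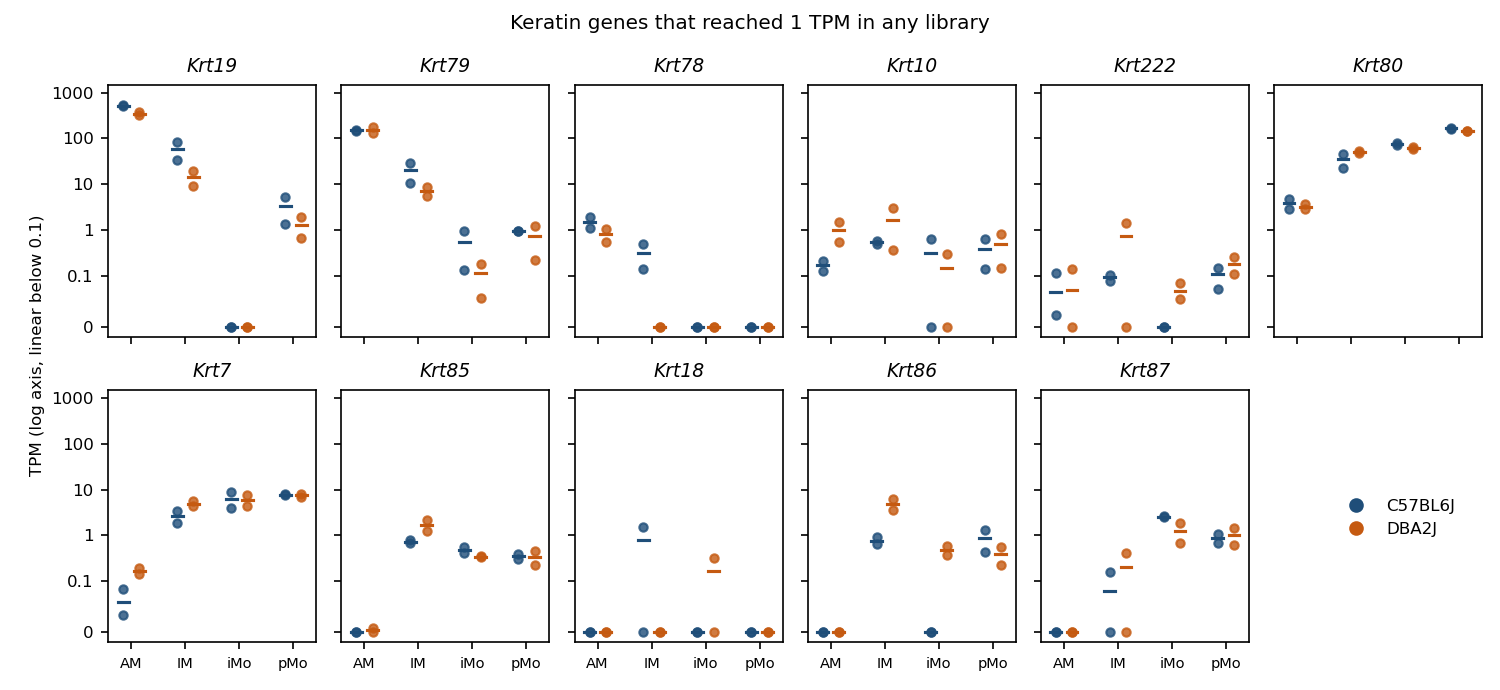
RNA level of the 11 keratin genes that reached 1 TPM in any library, by cell type, in TPM on an axis that is logarithmic above 0.1 and linear below; points are libraries, bars means of 2 libraries. Krt19, Krt79 and Krt78 are highest in AM, whereas Krt80 is at 2.85 to 4.78 TPM in AM and 142 to 166 TPM in pMo.

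Plet1 and Plet1os were next in abundance after Krt19. Plet1 is at chr9:50494525-50505639 on the plus strand, and Plet1os, a noncoding transcript, at chr9:50488799-50504805 on the minus strand. Plet1 was at 424 and 368 TPM in C57BL6J AM and 336 and 350.5 TPM in DBA2J AM. In IM it was 38.5 and 104 TPM in C57BL6J and 21.1 and 22.0 TPM in DBA2J. The strains did not overlap in either macrophage, but the AM libraries lay close together, whereas IM replicate 2 of C57BL6J was far above the rest of IM. Monocyte libraries ran from 0.088 to 2.69 TPM.

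Plet1os followed Plet1 closely, at 247 and 216 TPM in C57BL6J AM and 198 and 202 TPM in DBA2J AM. Its ratio to Plet1 ran from 0.528 to 0.714 over the 16 libraries, with a median of 0.593. The spans of the pair share 10280 bases, 92.5% of Plet1 and 64.2% of Plet1os. The libraries were made with a dUTP step, which marks strand, but the sources used here do not say whether counting used it, so reads of the pair cannot be told apart and Plet1os is given as uncertain.

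Car4 is at chr11:84957754-84966054 on the plus strand. It was at 144 and 172 TPM in C57BL6J AM and at 73.0 and 68.6 TPM in DBA2J AM. In IM it was 23.1 and 51.0 TPM in C57BL6J and 3.48 and 8.21 TPM in DBA2J. C57BL6J stood above DBA2J in both macrophages without overlap, and every AM library stood above every IM library. Monocytes ran from 0.476 to 2.41 TPM. Of 16 carbonic anhydrase genes, 3 others had a mean of 1 TPM or more: 2 of them were called lower in AM than in the other cells (Car14, -0.73 ± 0.16, adjusted p = 0.00157, and Car15, -0.76 ± 0.25, adjusted p = 0.0182, limma), and neither passed under median-of-ratios scaling, with adjusted p of 0.156 and 0.679. The third, Car9, differed by 0.29 ± 0.16 and did not pass (adjusted p = 0.129), but was called higher under median-of-ratios scaling (0.86, adjusted p = 1.4e-04), quantile normalization (0.86) and without ribosomal entries (0.83).

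Epcam, the gene with the sharpest split by strain, is a calcium-independent adhesion protein of epithelial cells at chr17:87635979-87651127 on the plus strand. It was at 13.6 and 10.5 TPM in C57BL6J AM and at 0.259 and 0.712 TPM in DBA2J AM. In IM it was 0.888 and 8.70 TPM in C57BL6J and 0.174 and 0.100 TPM in DBA2J. The DBA2J AM libraries therefore lay below both C57BL6J IM libraries. All iMo libraries listed it at 0 and pMo libraries at 0.033 to 0.365 TPM.

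Cdh1 is at chr8:106603350-106670247 on the plus strand. It was at 5.32 and 5.16 TPM in C57BL6J AM and 1.88 and 2.81 TPM in DBA2J AM. In IM it was 0.789 and 1.40 TPM in C57BL6J and 0.445 and 0.283 TPM in DBA2J, and in pMo 1.04 and 1.09 TPM in C57BL6J and 0.207 and 0.459 TPM in DBA2J. Every AM library was above every other library, and pMo and IM overlapped. iMo libraries reached 0.131 TPM at most.

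The partners of Cdh1 did not share 1 direction. Of 22 listed genes of adherens junctions and desmosomes, 9 were tested, 3 were higher in AM and 4 lower, with limma and Benjamini-Hochberg adjustment. The catenins that bind its tail were among the higher ones: Jup (gamma-catenin) by 0.91 ± 0.14, Ctnnb1 (beta-catenin) by 0.83 ± 0.09 and Ctnnd1 (p120-catenin) by 0.50 ± 0.13 (SE, log2 scale). The mean of Ctnnd1 was nonetheless higher in IM, at 44.5 ± 14.8 TPM, than in AM, at 31.5 ± 4.05 TPM (SD, n = 4), against 18.0 ± 3.65 TPM in iMo and 13.6 ± 1.92 TPM in pMo. Nectin1, an adhesion receptor, was lower by -3.35 ± 0.17, Vcl (vinculin, which ties junctions to actin) by -2.63 ± 0.13, Pkp3 (a desmosome plaque protein) by -1.56 ± 0.16 and Ctnna1 (alpha-catenin) by -0.43 ± 0.13. Ctnna1 changed sign, to 0.20, under median-of-ratios scaling.

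Of 16 tight junction and polarity genes, 7 were tested, 4 were higher in AM and 2 lower. Of all genes tested, 12.5% were called higher there and 59.3% lower. Among the 4, Marveld2 and Cldn1 met the minimum of 1 TPM only through AM, so no share is read from this count. F11r, a junctional adhesion molecule also made by leukocytes, was at 39.4 to 52.7 TPM in AM and higher by 3.15 ± 0.19 on the log2 scale. Marveld2 (tricellulin) was higher by 2.80 ± 0.17 and Cldn1 (claudin-1) by 1.20 ± 0.22 (limma, SE). The Cldn1 difference came from C57BL6J alone, since in DBA2J its AM libraries lay below its IM libraries. Tjp3 was lower by -0.73 ± 0.22 and did not pass under median-of-ratios scaling, with an adjusted p of 0.204.

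Cldn1 was split by strain in AM as Epcam was. It was at 6.09 and 7.15 TPM in C57BL6J AM and at 0.369 and 0.151 TPM in DBA2J AM, with no overlap. In DBA2J IM it was at 1.04 and 0.947 TPM, above both DBA2J AM libraries. No group mean outside C57BL6J AM passed 0.9925 TPM, so Cldn1 met the minimum of 1 TPM only through that group. As that is the high group of the strain contrast, its strain calls are given as a description and not as support. The strain difference, DBA2J minus C57BL6J, was -2.60 ± 0.39 on the log2 scale (limma, adjusted p = 0.00247), and it exceeded the mean difference in the other populations by -2.64 ± 0.45 (adjusted p = 0.00845). It passed in 21 of 22 alternative fits, and not with a pseudocount of 0.1 TPM (adjusted p = 0.0616).

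Most regulators of the epithelial state were low. Of 16 listed transcription regulators, among them Grhl2, Ovol1 and Elf3, 10 stayed under 1 TPM in every library and only Klf4 was tested, lower in AM by -1.43 ± 0.09 (SE, log2 scale, limma, adjusted p = 8.6e-08). Of 9 listed repressors of Cdh1, 5 were tested and 3 were lower in AM, a share close to the 59.3% of all genes called lower. Zeb2, abundant in macrophages and monocytes, was at 25.2 to 65.3 TPM in AM and at 104.6 TPM or more in every other library, a log2 difference of -2.22 ± 0.22. Tcf4 was lower by -1.59 ± 0.15 and Zeb1 by -0.90 ± 0.19. All 3 kept their sign and passed under median-of-ratios and quantile scaling, where Tcf3 and Klf8 were called higher.

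The members were then compared among the cells outside AM, a contrast that the choice of genes did not use. The 7 entered the fit on a mean that AM carries: over the 12 libraries outside AM, Epcam averaged 0.872 TPM and Cdh1 0.494 TPM, under the minimum of 1 TPM, and the other 5 averaged more. Those 5 were each higher in IM than in the mean of iMo and pMo, a call that 28.4% of all genes tested received. Krt79 and Plet1os averaged 0.583 and 0.840 TPM over the 8 monocyte libraries. Outside AM they thus met the minimum only through IM, the high group here, and Plet1os cannot be told apart from Plet1. No share is read from these 5 genes. The log2 differences were 4.17 ± 0.24 for Plet1, 4.04 ± 0.31 for Krt19, 3.66 ± 0.24 for Plet1os, 3.01 ± 0.27 for Krt79 and 2.61 ± 0.25 for Car4 (SE), with adjusted p-values of 1.2e-05 or less by limma. Epcam, which passed the minimum only through AM, differed by 1.04 ± 0.35 (limma, adjusted p = 0.0319), and that call was lost without IM C57BL6J replicate 2, where the difference was 0.45. It was also lost without either IM DBA2J or either iMo DBA2J library, iMo C57BL6J replicate 1, pMo C57BL6J replicate 1 or pMo DBA2J replicate 1, with adjusted p-values up to 0.0869. Cdh1, which likewise passed only through AM, differed by 0.35 ± 0.15 and did not pass (adjusted p = 0.0894).

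Between the monocytes the genes were near the limit of what could be compared. Over the 8 monocyte libraries only Krt19, Plet1 and Car4 averaged 1 TPM or more, and Krt79, Epcam, Cdh1 and Plet1os were in the fit only through their level in macrophages. The fit called Krt19, Cdh1 and Plet1 lower in iMo than in pMo, where 6.36% of all genes tested were called lower, and no share is read from these genes. Krt19 was lower by -1.55 ± 0.36 (limma, adjusted p = 0.00874), being at 0 in every iMo library and above 0 in every pMo library. Cdh1, at a monocyte mean of 0.376 TPM, differed by -0.65 ± 0.18 (adjusted p = 0.0188) and its libraries did not overlap; without replicate 2 of DBA2J iMo or of DBA2J pMo it did not pass (adjusted p up to 0.0525). Plet1 was lower by -0.90 ± 0.27 (adjusted p = 0.0331), and its call was lost without iMo C57BL6J replicate 1, iMo DBA2J replicate 2, pMo DBA2J replicate 2 or either pMo C57BL6J library (adjusted p up to 0.117). The 3 genes stayed at or under 5.33 TPM in monocytes, levels at which log2(TPM + 1) understates a ratio.

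Alveolar macrophage RNA of the strains was compared next. Of the 7 genes, 1 was called, Epcam, lower in DBA2J, against 1.30% of all genes called lower. Epcam met the minimum of 1 TPM only through its mean of 12.05 TPM in C57BL6J AM, the high group of this contrast. No share is therefore read from its call, which is given as a description. Its mean was 24.8 times higher in C57BL6J as a ratio of TPM, and -3.14 ± 0.56 on the log2(TPM + 1) scale (SE; limma, adjusted p = 0.00863). Without any 1 of the 4 AM libraries the difference stayed between -3.36 and -2.92, with adjusted p-values from 0.0526 to 0.106, so the call rests on all 4. Cdh1 and Car4 had higher means in C57BL6J by 2.23-fold each, with log2 differences of -0.91 ± 0.25 and -1.14 ± 0.41 that did not pass (limma, adjusted p = 0.0867 and 0.237). Cdh1 passed under median-of-ratios scaling (adjusted p = 0.00804) and in 4 other alternative fits. Like Epcam, Cdh1 met the minimum of 1 TPM only through C57BL6J AM, the high group, at a mean of 5.24 TPM. Its strain values are therefore given as a description and not as support.

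Krt19 differed by -0.58 ± 0.51, Plet1 by -0.20 ± 0.39 and Krt79 by 0.05 ± 0.44 between the strains in AM, none of which passed. The 95% intervals ran from -1.71 to 0.54 for Krt19, from -1.05 to 0.65 for Plet1 and from -0.91 to 1.01 for Krt79, so differences of about the size seen for Car4 are within the interval of Krt19. The fit gives each gene 1 spread over all populations, and for these genes the IM libraries scattered more than the AM libraries. In a fit of the 4 AM libraries alone, Krt19 (adjusted p = 0.0376), Car4 (0.00954) and Epcam were called by limma, all lower in DBA2J. Tests of whether the AM strain difference departs from the mean difference in IM, iMo and pMo called none of the 7 genes, against 2.79% of all genes. Epcam came nearest, at -2.54 ± 0.65 (limma, adjusted p = 0.0718).

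**Figure D3:**
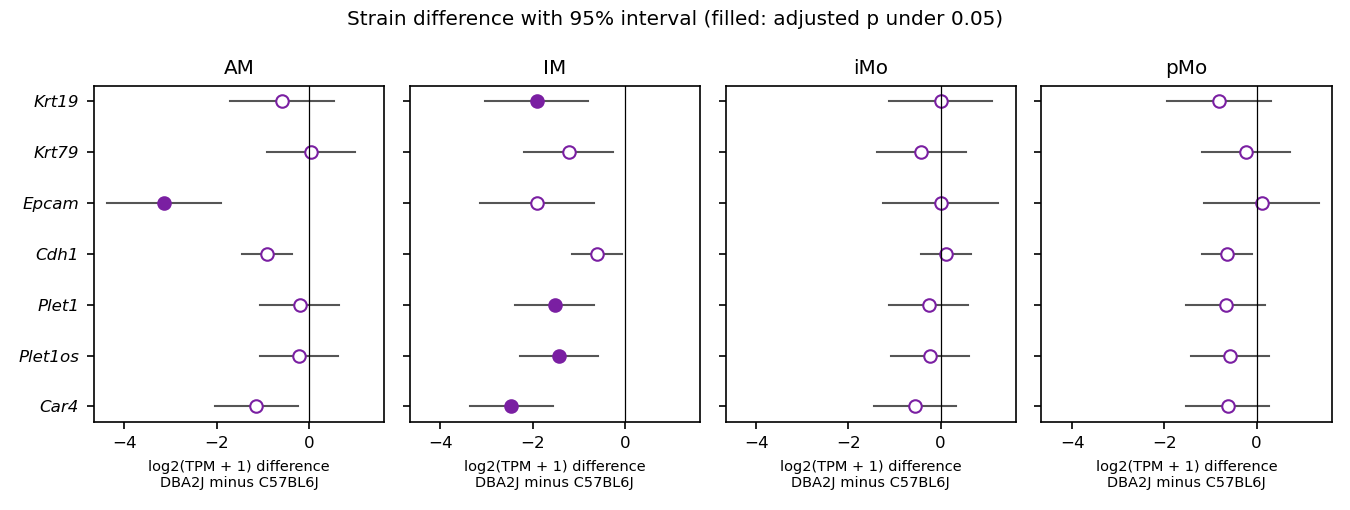
Strain difference (DBA2J minus C57BL6J, log2(TPM + 1)) of the 7 tested genes in each cell type; points are estimates, lines 95% intervals, and filled points have an adjusted p under 0.05. Epcam is the only filled point in AM, at -3.14. In IM 4 genes are filled, among them both Plet1 and Plet1os, and none in iMo or pMo.

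In IM, 4 of the 7 genes were lower in DBA2J, against 6.74% of all genes called lower. The 4 include both Plet1 and Plet1os, whose reads cannot be told apart, so they are not 4 separate signals. The differences were -2.46 ± 0.41 for Car4 (limma, adjusted p = 0.00391), -1.91 ± 0.51 for Krt19 (0.0369), -1.51 ± 0.39 for Plet1 (0.0308) and -1.43 ± 0.39 for Plet1os (0.0383). Without IM C57BL6J replicate 2, only Car4 was called, and the differences of Krt19, Plet1 and Plet1os were -1.25, -0.81 and -0.66 with adjusted p-values of 0.259, 0.196 and 0.207. Without IM DBA2J replicate 1, again only Car4 was called, without IM DBA2J replicate 2 or any 1 AM library 2 genes were, and in a fit of the 4 IM libraries alone none of 6 tested was. In iMo and pMo, strain calls were made for 3.47% and 3.66% of all genes and for 0 of the 7. Nothing is read from that 0, since Krt19 and Epcam were at 0 in every iMo library and only 1 of the 7 averaged 1 TPM in the iMo libraries and 4 in the pMo libraries. At an unadjusted p under 0.05 limma gave 0 in iMo and 1 in pMo, Cdh1 (-0.64 ± 0.25, adjusted p = 0.220).

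Alveolar macrophage markers were divided in the same contrast of IM. Of 21 tested, 5 were lower in DBA2J IM, 1 was higher and 15 did not pass, with a median log2 difference of -0.85: Chil3 (-2.78 ± 0.33), Ctsk (-2.67 ± 0.43), Siglecf (-2.30 ± 0.44), Cidec (-1.76 ± 0.37) and Atp6v0d2 (-1.67 ± 0.26) were lower and Ear2 (1.38 ± 0.27) higher (limma, log2, SE). Siglecf, whose product was a sorting antigen, was at 27.6 and 81.8 TPM in C57BL6J IM and at 8.62 and 9.13 TPM in DBA2J IM. The level of the 7 genes in IM was set against the AM mean of the same strain. The median was 8.76% in C57BL6J replicate 1, 26.3% in C57BL6J replicate 2, 6.13% in DBA2J replicate 1 and 6.41% in DBA2J replicate 2. C57BL6J replicate 2 was thus the highest IM library for each of the 7 genes. Over the 22 AM markers the medians were 33.7% and 49.6% in the C57BL6J libraries and 30.9% and 31.8% in the DBA2J libraries, so that replicate 2 was highest there too, but by less. The summed level of the 22 AM markers was 1905 to 3401 TPM in IM, highest in that library, 1830 to 3217 TPM in iMo, 2612 to 3191 TPM in pMo and 6187 to 6646 TPM in AM. The part of AM RNA in these IM results was not tested.

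**Figure D4:**
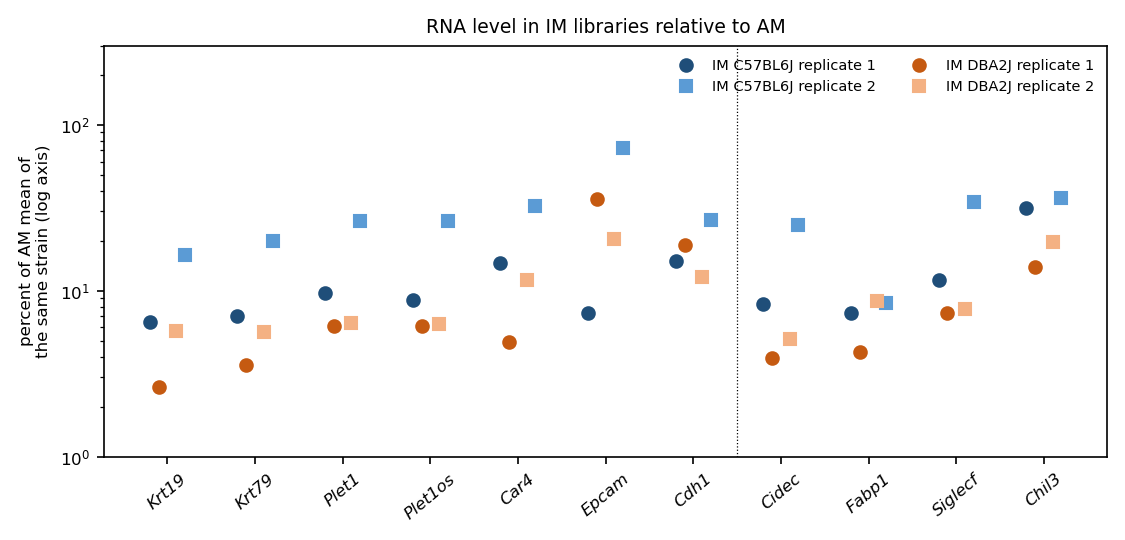
Level in each of the 4 IM libraries as a percent of the AM mean of the same strain, on a log axis, for the 7 tested genes (left of the dotted line) and 4 alveolar macrophage markers (right). C57BL6J replicate 2 (light blue squares) is the highest of the 4 for each of the 7 genes, with a median of 26.3%.

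Markers of other cells were given the same look. Of 29 lung epithelial markers, 11 were tested, 7 were lower in AM than in the mean of IM, iMo and pMo and 0 higher. In that contrast 59.3% of all genes were called lower. Under median-of-ratios scaling 2, Muc1 and Tppp3, were called higher. The surfactant gene Sftpc was at 0.313 to 4.33 TPM in AM and 0.558 to 25.3 TPM in IM, highest in C57BL6J replicate 2, and the club cell gene Scgb1a1 at 0.227 to 2.60 TPM in AM and 6.30 to 29.5 TPM in IM. In AM, Sftpc was at 1.79 and 4.33 TPM in C57BL6J and 0.715 and 0.313 TPM in DBA2J, and its strain difference there did not pass (-1.36 ± 0.65, limma, adjusted p = 0.481). In that contrast of the AM libraries 1 of the 11 was lower in DBA2J, Napsa (-2.31 ± 0.32, adjusted p = 0.00163), and 1 higher, Abca3 (0.83 ± 0.14, adjusted p = 0.00748). In IM, where members were called lower in DBA2J, 2 of the 11 were lower, Sftpc (-2.60 ± 0.65, adjusted p = 0.0286) and Sftpb (-1.82 ± 0.45, adjusted p = 0.0275), and 1 higher, Hopx (0.80 ± 0.17, adjusted p = 0.0152). The keratins Krt8 and Krt18 were at 0 in every AM library. In IM, Krt8 was at 0 in every library, and Krt18 was at 1.56 TPM in C57BL6J replicate 2 and at 0 in the other IM libraries. The markers with the highest levels, Tppp3, Napsa, Hopx and Abca3, were each highest in a monocyte library. The list's summed level was 161 to 249 TPM in AM, 204 to 310.0 TPM in IM, 288.5 to 587 TPM in iMo and 280.2 to 537 TPM in pMo, and its part in the Epcam difference and in the IM differences was not tested.

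Car4 also marks a type of lung capillary cell. The 18 endothelial markers summed to 46.6 and 51.3 TPM in C57BL6J AM and 103.5 and 194 TPM in DBA2J AM, the reverse of the order of Car4. In IM they summed to 293 and 473 TPM in C57BL6J and 72.6 and 276 TPM in DBA2J, the same order as Car4, with Cldn5, Ramp2 and Egfl7 highest in C57BL6J replicate 2. Of 16 tested, 1 (Vwf) was higher in AM than in the mean of IM, iMo and pMo and 3 lower (Ednrb, Pecam1 and Aplnr). Between the strains, 2 of the 16 were lower in DBA2J IM, Tbx2 (-2.25 ± 0.60, limma, adjusted p = 0.0362) and Vwf (-1.17 ± 0.23, adjusted p = 0.00951), and in AM 1 was lower (Flt1) and 2 higher (Aplnr and Pecam1) in DBA2J. Neutrophil markers summed to 2875 to 4728 TPM in IM, led by S100a8, S100a9, Csf3r and Mmp9, and to at most 240 TPM in any other library. Of 7 tested, 2 were higher in DBA2J IM, Ngp (2.49 ± 0.44, adjusted p = 0.00513) and Cxcr2 (1.02 ± 0.24, adjusted p = 0.0235), as was 1 of 7 B cell markers, Cd22 (2.14 ± 0.32, adjusted p = 0.00219). Against the mean of IM, iMo and pMo, all 7 neutrophil markers tested were lower in AM, where 59.3% of all genes were called lower. S100a8 was nonetheless at 5.42 to 11.35 TPM in AM, above every pMo library (1.19 to 4.44 TPM). Also lower in AM than that mean were 7 of 7 B cell markers (Cd22, Cd79b and Cd79a among the highest). So were 8 of 9 dendritic and Langerhans cell markers (Cd209a, Batf3 and Clec9a among them). The ninth, Ccl22, differed by 0.05 ± 0.38 and did not pass (adjusted p = 0.916). Some of these markers met the minimum of 1 TPM only through the other cells. Mmp9 was at most 0.643 TPM in AM and Cd209a at most 0.41 TPM, so no share is read from these counts. Fibroblast markers (Pdgfra, Col1a1, Col3a1 and Dcn highest) stayed at or under 3.95 TPM each. The part of these cells in the IM results was not tested.

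Open chromatin near the 9 genes was described from the 8 peak lists, with no test, because each population and strain had 1 list. A peak was assigned to the gene with the nearest start within 100 kb, and peaks overlapping by at least 1 base were taken as 1 site. The 9 genes had 68 sites. Of these, 42 were in both AM lists and 24 of the 42, 57.1%, were in no other list. Over all genes the share was 13.1% (3574 of 27306 sites). Near the 1525 other genes called higher in AM it was 27.5%, and near the 109 of them with a log2 difference of at least 3 it was 45.6%. Sites of 1 gene are not independent, and the genes were chosen for AM RNA.

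Krt19 had 6 sites, all in both AM lists and in no other, at -1.4, -2.4, -4, -6, -23.2 and -24.5 kb from its start, upstream being negative. The site at -6 kb had the highest score of the 6, above 97.1% of peaks in the C57BL6J AM list and 96.5% in the DBA2J AM list by the authors' score. Among the 1525 other genes called higher in AM, 44 had 6 or more such sites. Krt79 had 2 sites private to AM, at -5.3 kb and, within the gene, at 3.7 kb from the start. Between Krt79 and Krt8, the region nearest to Krt78 had 13 sites, of which 5 were private to AM and 3 in all 8 lists. Krt8 had 1 site in all 8 lists, 19.9 kb past its start, and none private to AM, and Krt18 had 1 site, in the DBA2J AM and C57BL6J IM lists.

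Plet1 had 28 sites, 20 in both AM lists and 9 private to AM, among them a peak over the start and 1 centred at -370 bases from it. Of the other 1525 genes called higher in AM, 11 had 9 or more private sites. The peak over the start, chr9:50494426-50494648, holds the TATAAA and AGGTCA matches of the promoter printed above and not the others. Of its 28 sites, 16 were in the C57BL6J IM list and 2 in that of DBA2J IM. The 1 site found in all 8 lists lay at -41.9 kb. Plet1os had 2 sites and no AM peak of its own by this rule. Car4 had 6 sites in both AM lists, 4 private to AM: at the start, 2.3 kb into the gene, and 27.8 and 30.7 kb beyond the start. The peak at its start had one of the lowest scores, at percentile 5.00 of the C57BL6J AM list and 29.3 of the DBA2J AM list.

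Epcam and Cdh1 had no AM peak within 1 kb of the start, although their mean RNA level was highest in AM. Epcam had AM peaks at -19 kb (scores 133 in C57BL6J and 123 in DBA2J) and -15.8 kb (30.3 and 48.1). Both sites were in both AM lists. Another AM site, at -22.5 kb, was in the DBA2J list (score 29.4) and not in that of C57BL6J, the strain with more RNA. The only peak within 1 kb of its start was in the C57BL6J IM list, with a score of 9.26. Cdh1 had its largest AM peak 8.9 kb into the gene, at percentile 96.4 and 96.6, a site present in all 8 lists, and its 2 sites private to AM were at 12.7 and 23.3 kb. A peak over the Cdh1 start was in both IM lists and in no other. Its scores were low, at percentile 12.4 of the C57BL6J IM list and 2.54 of the DBA2J IM list. In the latter its score of 24 was the lowest of the list, so its absence elsewhere is weak information. Within 1 kb of the start, 2 of the 9 genes, Plet1 and Car4, had a peak in each AM list, while 34.8% and 38.9% of all 24940 starts did.

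**Figure D5:**
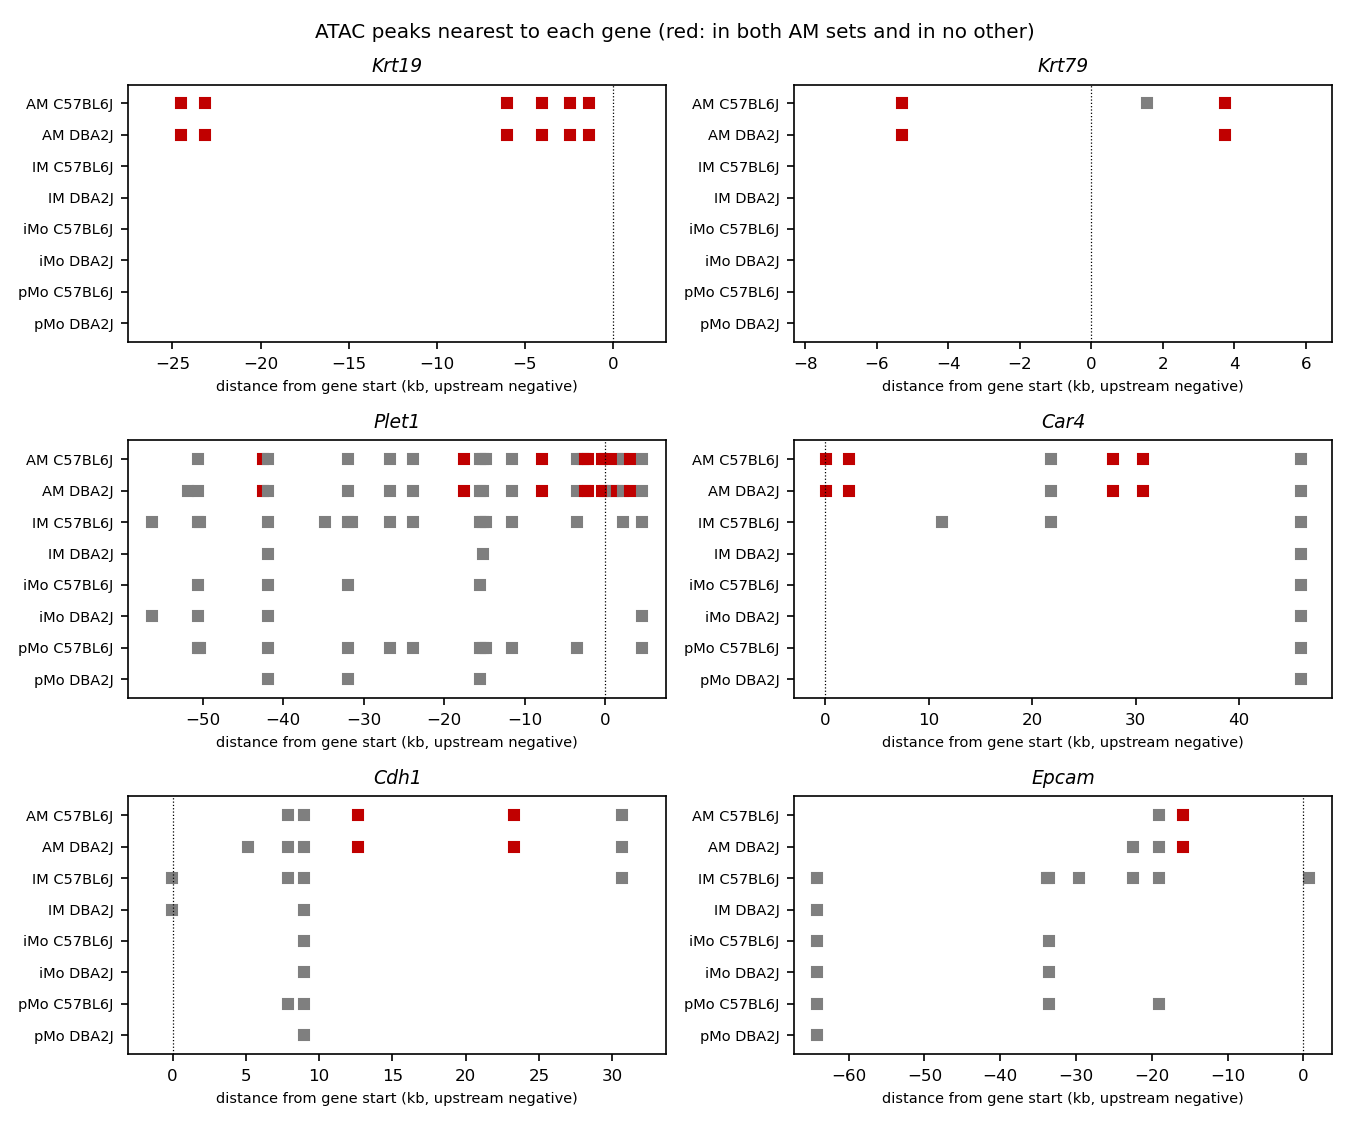
ATAC peaks whose nearest gene start is that of Krt19, Krt79, Plet1, Car4, Cdh1 or Epcam, by distance from the start in kb (upstream negative) and by peak list; red squares are sites in both AM lists and in no other, grey squares all other peaks. All 6 Krt19 sites are red, and the start of Cdh1 is marked only in the IM lists, by peaks of low score.

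The strains shared most of these AM sites. Of 50 sites near the 9 genes in an AM list, 42 (84%) were in both, against 27306 of 44105 (61.9%) over all genes. The lists differ in size, from 24429 to 70013 peaks, the C57BL6J IM list being the longest and reaching the lowest scores (7.41, against 20.5 or more in the others). Without that list, 27 of the 42 sites counted as private to AM, against 20.6% over all genes, a comparison added after seeing the data.

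Genes near the members mostly did not share their pattern. Within 100 kb of the 9 starts were 30 other genes, 14 of them under 1 TPM in every library. In 3 the lowest AM library stood above every other library: Krt78, Krt77 (0.029 to 0.177 TPM in AM, 0 elsewhere) and Il18. Il18, a cytokine gene 60.2 kb from Plet1, was at 33.7 to 57.4 TPM in AM and 4.28 to 19.8 TPM elsewhere. In 4 the highest AM library stood below all others. One of these was Pts, 34.1 kb from Plet1, at 11.8 to 15.2 TPM in AM and 31.4 TPM or more elsewhere. All 8 keratin neighbours of Krt19, from Krt14 to Krt31, stayed at or under 0.293 TPM.

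The genes whose log2(TPM + 1) followed each member most closely over the 16 libraries were listed by Pearson correlation, as a description: libraries share cell type and strain, and no p is given. Krt19 was nearest to Plet1os (0.992), Plet1 (0.991) and Cidec (0.990), a lipid droplet protein. Krt79 was nearest to Nagk (0.994), a sugar kinase, Plet1os (0.993) and F7 (0.993), coagulation factor VII, and Plet1 to Plet1os (0.999), Cidec (0.992) and Enpp1 (0.992). Cidec and the Plet1 pair thus recurred among the nearest genes. Plet1os was nearest to Plet1, Cidec and Krt79 (0.993). Epcam was nearest to Pnpla5 (0.987), a lipase, Aloxe3 (0.981), a lipoxygenase of skin, and Adgrg1 (0.967), an adhesion receptor. These 3 genes had the strain split of Epcam: Pnpla5 was at 24.1 and 22.8 TPM in C57BL6J AM and 0.186 and 0.310 TPM in DBA2J AM. Cdh1 was nearest to Lima1 (0.957), Mccc2 (0.942) and Fam189a2 (0.940), and Car4 to Trim29 (0.992), Lepr (0.989) and Cx3cl1 (0.989). Of these 21 nearest genes, 4 were among the 3 nearest of the same member under Spearman correlation, in any order, and 13 under median-of-ratios scaling.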

How the data were processed

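RNA was measured in 16 libraries and open chromatin in 8 peak lists. The authors deposited RNA levels as TPM in 1 table of the whole series, per the file headers; STAR, Bowtie, HOMER and build mm10 are named in the submitters' processing notes, without versions or roles. The gene length behind TPM and the strand setting of counting are not given in the sources used here. Each deposited peak list was made from 2 libraries, per the labels, and gives the authors' score for each peak. The scale of the score is not stated, so scores were used only to rank peaks within a list.

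The 9 genes and the gene lists were chosen with earlier results of these data known. Log2(TPM + 1) was fitted with limma 3.58.1 (R 4.3.3), 1 mean per population and strain, with a variance trend, over 12277 genes averaging 1 TPM or more. P-values were adjusted over all genes tested (Benjamini-Hochberg) and called under 0.05. Differences are on the log2(TPM + 1) scale, which understates changes of low genes. The fit was tested on simulated data. Genes named were the 9 members, genes starting within 100 kb of a member, the 3 genes most like each member, and from each list up to 4 called genes with the largest difference and, for markers of other cells, the 4 highest. Ctnnb1, Ctnnd1, Ctnna1, Tjp3, Tcf3, Klf8, Car9, Muc1, Sftpc, Scgb1a1, Ear2 and Atp6v0d2, and the strain results of Cldn1, fall outside that rule and were picked after their values were seen. Some genes that the rule names are not reported here. Alternatives changed the pseudocount (0.1), the filter (none, or 5 TPM), the scaling, the variance trend, the libraries used and the peak rules. Python 3.11.15 with pandas 2.3.3 handled peaks and promoters.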

Additional observations from a re-analysis of the deposited data

Results flagged for a closer look

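Cdh1 moved in opposite directions between the strains in iMo and in the other populations. It was higher in both DBA2J iMo libraries than in both C57BL6J iMo libraries, by 0.084 TPM on average, and lower in DBA2J in AM (by -2.9 TPM), IM (by -0.731 TPM) and pMo (by -0.732 TPM), each without overlap. The difference between these directions was not tested for each pair. The iMo levels were 0.022 and 0 TPM in C57BL6J and 0.131 and 0.059 TPM in DBA2J. No strain difference of Cdh1 passed in the limma fit of all libraries at the settings of the report. That in AM passed under 5 alternatives, but Cdh1 met the minimum of 1 TPM only through C57BL6J AM, the high group there.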

How the results depend on the processing

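Strain calls for these genes were sensitive to the processing, with 2 libraries per group. In AM, 1 gene was called: 2 with no filter, under median-of-ratios scaling, under quantile normalization, without ribosomal entries and without a variance trend, 3 from the AM libraries alone, 0 with a mean of at least 5 TPM (which drops Epcam), and 0 to 1 when a library was left out. All genes called there numbered 403, and 655, 610, 700 and 697 under median-of-ratios scaling, quantile normalization, without ribosomal entries and with AM libraries alone (186 to 440 leaving out a library). In IM, 4 genes were called: 1 with a pseudocount of 0.1, 2 with no filter, 0 from IM libraries alone, and 1 to 6 leaving out a library. All genes called there numbered 1290, and 2162 under quantile normalization and 61 from IM libraries alone (492 to 1724 leaving out a library). Between strains 0 of the genes were called in iMo and pMo in every alternative run, most of them being under 1 TPM there. All genes called numbered 426 in iMo (244 from its libraries alone, 203 to 499 leaving out a library) and 449 in pMo (699 under median-of-ratios scaling, 678 without ribosomal entries, 156 from its libraries alone, 191 to 581 leaving out a library). The contrast of AM with the other strain differences called 0 of the genes, 1 (Epcam) under median-of-ratios scaling and quantile normalization, and 0 to 1 leaving out a library, with 343 genes in all (128 to 432). IM minus monocytes called 6 (5 to 7 leaving out a library), with 5024 genes in all and 3284 with a mean of at least 5 TPM; iMo minus pMo called 3 (1 to 4 leaving out a library). Krt79 in AM changed sign, from 0.05 to -0.11 under median-of-ratios scaling, and ran from -0.16 to 0.27 leaving out a library. The number of sites private to AM was 24, and 37 when any site within 100 kb of a start counted; it was 24 within 50 kb, 16 among the better-scored 50% of peaks and 23 with 50% overlap. Of 534 recomputed values of single genes, 470 kept their direction and their side of the threshold.

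With the replicate number as a block, 1, 4, 0 and 0 of the genes were called between strains in AM, IM, iMo and pMo, 0 in the contrast of AM with the other strain differences, 6 in IM minus monocytes and 3 in iMo minus pMo, as without it, and it changed no call. Of all genes it called 378, 1204, 399, 434, 356, 5038 and 3057 in that order. Same-numbered deviations had a median correlation of 0.0176 over 28 pairs of groups, from -0.0749 to 0.2, and 5 pairs were over 0.1. Over the 12 pairs of the same strain the median was 0.0219, from -0.0749 to 0.146. The numbers thus showed no clear pairing, and these values cannot show whether populations were sorted from the same animals. Depth is unknown, so values under 1 TPM carry no error of their own here.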
